A study of Mus musculus with 28 samples.

Results

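Rn45s, the 45S ribosomal RNA transcription unit, and 5 long noncoding RNAs known mainly from the nucleus, Malat1, Neat1, Meg3, Miat and Snhg11, were followed in RNA libraries of mouse brain synaptosomes. They are 6 of the 25239 gene symbols counted in one preparation and of the 24443 counted in the other. They were taken by symbol, and were picked after the ratio of sorted to crude libraries was known, so that ratio is described here without a test. The labels give the tissue as brain and the RNA as polyA, and name no strain, age, sex or genotype. Synaptosomes are nerve terminals torn from their axons that reseal with part of the postsynaptic membrane. In the SynSURF preparation there were 10 crude and 10 sorted libraries, and in a sucrose gradient preparation 3 crude and 3 sorted libraries. Crude samples held some 15000000 particles in 10 µL of PBS and sorted samples some 30000000 particles in 10 µL of the reducing agent TCEP, so medium and input moved with sorting in both preparations. Both kinds of sample then went through the Repli-g WTA single cell kit, which amplifies RNA as cDNA. No label ties a replicate to an animal of its own, so each p-value below refers to the spread among these samples, part or all of which may be technical.

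In the nucleolus, RNA polymerase I transcribes the 45S unit as one long precursor that is cut into the mature 18S, 5.8S and 28S ribosomal RNAs; the mature RNAs leave for the cytoplasm, while the precursor and its spacers stay. Counts on Rn45s do not separate precursor from mature RNA. Malat1 sits in nuclear speckles, Neat1 is the scaffold of paraspeckles, Meg3 is expressed from the maternal allele of an imprinted cluster, Miat is a neuronal nuclear RNA that binds splicing factors, and Snhg11 is a host gene of small nucleolar RNAs that is expressed in neurons. Libraries selected for poly(A) can also take up RNAs without a tail where an internal run of A primes the cDNA.

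In the GENCODE M21 annotation of GRCm38, Malat1 (ENSMUSG00000092341.3) lies at chr19:5795690-5802672 on the minus strand and Neat1 (ENSMUSG00000092274.3) at chr19:5824708-5845478, also on the minus strand. Meg3 (ENSMUSG00000021268.17) lies at chr12:109541001-109571726 on the plus strand. Miat (ENSMUSG00000097767.8) lies at chr5:112213228-112229395 on the minus strand, and Snhg11 (ENSMUSG00000044349.15) at chr2:158375638-158386145 on the plus strand. The build behind the count tables is not given in the sources used here, so these positions describe the annotation only. The longest internal run of A in the longest transcript of each long noncoding RNA is given here in capitals, with up to 15 bases on each side, because the libraries are labelled as polyA RNA and Malat1 carries no ordinary tail:
Malat1: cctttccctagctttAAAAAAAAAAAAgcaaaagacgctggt
Meg3: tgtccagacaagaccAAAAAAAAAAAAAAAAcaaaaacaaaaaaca
Snhg11: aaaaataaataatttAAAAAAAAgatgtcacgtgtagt
Neat1: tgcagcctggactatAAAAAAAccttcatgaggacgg
Miat: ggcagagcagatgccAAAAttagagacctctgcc

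The search covered the transcribed strand only. The longest Meg3 transcript (14548 bases) held the longest run, 16 A from position 420, and 12.6% of the 357 annotated transcripts within 1.25-fold of its length held one at least as long. That of Malat1 (6983 bases) held 12 A ending 298 bases before its 3′ end, and 19.2% of 3994 transcripts of like length held a run at least as long. The runs of Snhg11 (8 A) and Neat1 (7 A) were ordinary for their lengths: 45.1% and 82.8% of transcripts of like length had one at least as long. Miat (9163 bases) stood at the other end, with no run longer than 4 A, and only 30 of 1784 transcripts of like length (1.68%) had no longer run. No base sequence of Rn45s was used here.

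SynSURF crude libraries held 1035423 to 8897238 counts. Sorted replicate 1 held 1812759 and the other 9 sorted libraries held 76520 to 325117. The sucrose libraries held 1844679 to 6793374 counts, crude and sorted alike. All levels below are shares of these totals, in percent or as CPM, which scale each library to 1000000 counts, unless the length-scaled TPM is named. At a limit of 3 counts, a count of 0 allowed 9.23 to 39.2 CPM in sorted replicates 2 to 10, 1.65 CPM in sorted replicate 1 and no more than 2.90 CPM in any crude or sucrose library. Intervals and limits cover counting error only, since amplified reads are not independent molecules.

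Among the marker lists, neuronal and synaptic genes were present in every group, with Syp at 0 in all 10 SynSURF sorted libraries as the only absent one of 10. Together they took 0.642% ± 0.0838 of the counts outside Rn45s in SynSURF crude libraries (range 0.505% to 0.792%). In sorted ones they took 0.477% ± 0.214 (range 0.122% to 0.962%, SD, n = 10 each). Oligodendrocyte markers together took 0.685% ± 0.191 of the counts outside Rn45s in SynSURF crude libraries (range 0.356% to 1.02%) and 4.76% ± 2.14 in sorted ones (range 0.869% to 8.70%; SD, n = 10 each), and all 8 were detected in both. Astrocyte markers took 0.774% to 1.69% in crude and 0.105% to 0.984% in sorted libraries, with all 8 detected. Microglial markers took 0.0140% to 0.0749% and 0.00181% to 0.0347%, with Cx3cr1 at 0 in every sorted library. Of 8 endothelial markers, 7 were at 0 in every sorted library, and the list's share there was at most 0.00128%, against 0.00271% to 0.0141% in crude libraries. The part of these cell types and of depth in the sorted-to-crude values below was not tested, and in such bulk libraries fewer cell fragments of a type and less RNA per fragment cannot be told apart.

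Rn45s was the member with by far the most counts. Its share of counts in the 10 SynSURF crude libraries ranged from 0.0894% in replicate 1 through a median of 0.352% to 0.778% in replicate 6. In the 10 sorted libraries it ranged from 0.805% in replicate 2 through a median of 14.8% to 62.5% in replicate 9. The groups did not overlap, but the sorted libraries fell far apart: replicates 2, 3 and 5 lay at 0.805%, 0.919% and 0.885%, just above the highest crude library, while replicates 1, 7 and 9 lay at 37.9%, 38.9% and 62.5%. The means were 0.386% ± 0.220 and 19.7% ± 20.8 (SD, n = 10 each), a ratio of 51.0. As background, on CPM scaled with TMM factors, 0.152% of the 6598 genes tested here had every sorted library above every crude one. On that scale 8.73% had every sorted library below. The Rn45s groups were apart on that scale as well. No other member had its groups apart in either direction. Rn45s was the most abundant gene in sorted replicates 1, 4, 6, 7, 8, 9 and 10, and ranked 9, 10 and 6 in replicates 2, 3 and 5.

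On the length-scaled TPM scale the same RNA took less of the libraries. Sorted replicate 9, at 62.5% of counts, stood at 335072 TPM, which is 33.5% of the TPM total. On this scale 8 rather than all 10 sorted libraries lay above the highest crude library, which stood at 2405 TPM. Rn45s TPM averaged 1312 ± 642 in crude and 83187 ± 106735 in sorted libraries (SD, n = 10 each).

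**Figure D1:**
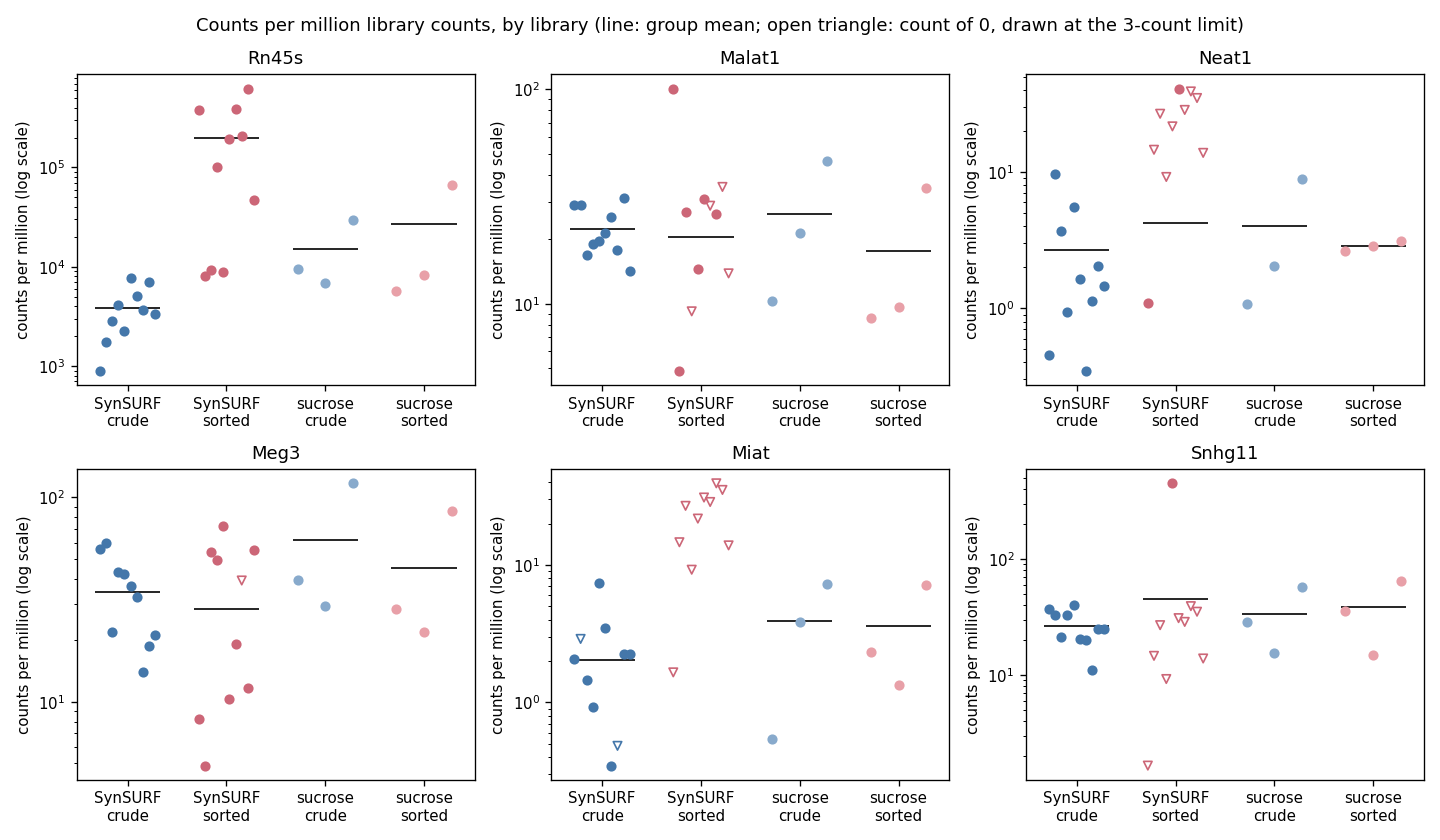
CPM of each RNA (y axis, log scale) in each library of the 4 groups. Lines mark group means, and open triangles are counts of 0 drawn at the 3-count limit. Rn45s shows sorted SynSURF libraries above all crude ones, Malat1, Neat1, Meg3 and Snhg11 each show at least 1 above the crude range, and Miat shows counts of 0 in all 10.

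The 5 long noncoding RNAs did not follow Rn45s. Malat1 counts in crude replicates 1 to 10 were 127, 30, 23, 41, 53, 117, 147, 111, 151 and 126, or 14.2 to 31.1 CPM with a median of 20.5. In sorted replicates 1 to 10 they were 183, 1, 3, 0, 2, 3, 0, 2, 0 and 0. Sorted replicate 1 alone, at 101 CPM and above every crude library, held 94.3% of all Malat1 counts of the sorted group. The pooled share was 0.00216% in crude libraries (95% Wilson interval 0.00203% to 0.00231%) and 0.00611% in sorted ones (0.00531% to 0.00704%). Without sorted replicate 1 the pooled sorted share was 0.000809% (0.000452% to 0.00145%). One library thus set on which side of the crude value the sorted group lay.

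Neat1 was a low-count RNA in every group. The crude libraries held 2 to 15 counts, with a median of 8, or 0.347 to 9.66 CPM. Among sorted libraries, replicate 6 held 4 counts, replicate 1 held 2 and the other 8 held none. Of the 8 sorted libraries without a count, 7 had limits of 13.9 to 39.2 CPM, above the highest crude library, and replicate 4 had a limit of 9.23 CPM, just under it but above the other 9 crude libraries. A level like that of most crude libraries was thus not detectable at this depth. In replicate 1, whose limit was 1.65 CPM, Neat1 stood at 1.10 CPM, inside the crude range.

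Meg3, the long noncoding RNA with the most counts, was the most evenly detected of the 5 after sorting. Its counts in crude replicates 1 to 10 were 244, 62, 30, 93, 113, 202, 187, 87, 91 and 188, or 14.02 to 59.9 CPM with a median of 34.6. In sorted replicates 1 to 10 they were 15, 1, 6, 16, 10, 1, 2, 0, 1 and 12. Sorted replicates 3, 4, 5 and 10 lay at 49.2 to 72.4 CPM, at the upper end of the crude range or above it, and replicate 1, the deepest, lay at 8.27 CPM, below it. The groups overlapped, with means of 34.6 ± 15.8 and 28.5 ± 26.3 CPM (SD, n = 10 each).

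Miat had 85 counts in the 10 crude libraries, in which replicates 2 and 8 held none and replicates 5 and 10 held 20 each. It had no count in any of the 10 sorted libraries. Pooled, this was 0.000198% of crude counts (Wilson interval 0.000160% to 0.000245%) against 0 of 3172830 sorted counts, which allows up to 9.46e-05% at 3 counts over the group and makes the pooled sorted share at least 2.10-fold lower. Sorted replicate 1 supplies most of that depth: without it, 0 of 1360071 counts allow 0.000221%, which is above the crude share.

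Snhg11 showed 1 positive sorted library. Its counts in crude replicates 1 to 10 were 164, 34, 29, 70, 109, 112, 115, 68, 121 and 221, or 10.96 to 40.5 CPM. Sorted replicate 5 held 62 counts, or 449 CPM, above every crude library, and the other 9 sorted libraries held none. In sorted replicates 1 and 4 the limits of 1.65 and 9.23 CPM lay below the lowest crude library. In the other 7 they lay inside or, for replicate 8, close to the top of the crude range.

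Fitted differences restate how far these values hang on scaling. Of the 6 members, 4 passed the expression filter in the SynSURF comparison; Neat1 and Miat did not. In the edgeR fit with TMM factors the sorted-minus-crude log2 difference was 7.06 ± 0.85 for Rn45s, 1.62 ± 0.77 for Malat1, 0.80 ± 0.58 for Meg3 and 1.39 ± 1.00 for Snhg11 (SE). Each SE of an edgeR difference, here and below, is the size of the difference divided by the square root of its F statistic. With library totals in place of TMM the same differences were 5.64, -0.01, -0.26 and 0.75. The median over all 6598 genes tested was -0.18 with TMM and -1.28 with library totals. Without sorted replicate 1 the TMM value of Malat1 was -0.40, beside a median of -0.40 over all genes tested. Snhg11 rests on sorted replicate 5 alone, and its TMM value ranged from -8.93 to 1.71 when libraries were left out. Over all genes, 1961 (29.7%) passed an adjusted p of 0.05 in edgeR, 503 higher (7.62%) and 1458 lower (22.1%). Higher calls made up 25.7% of these, 3.71% with library totals and 1.38% with replicate numbers as a block. Since the members were chosen on this comparison, nothing is read from their own calls, their SEs or their place beside that median.

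In the sucrose preparation the same 6 RNAs were detected in every library. Rn45s took 0.953%, 0.680% and 2.94% of counts in crude replicates 1 to 3 and 0.571%, 0.818% and 6.70% in the sorted ones. Replicate 3 was high before and after sorting, and the other libraries lay between 0.571% and 0.953%. Replicate numbers paired these libraries, and the sorted share was 0.600, 1.20 and 2.28 times the crude share of the same number.

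The ratio within pairs was most alike for Meg3, at 0.720, 0.749 and 0.730. Its counts were 73, 199 and 224 in crude and 86, 114 and 275 in sorted libraries. Malat1, with 19, 146 and 89 crude and 26, 50 and 111 sorted counts, stood at 0.836, 0.448 and 0.742 times the crude share. Both RNAs were thus lower after sorting in all 3 pairs, but no member had all 3 sorted libraries above or below all 3 crude ones. On CPM scaled with TMM factors, 4.57% of the tested genes had them above and 3.84% below. Snhg11, at 53, 105 and 109 crude and 108, 77 and 206 sorted counts, gave ratios of 1.25, 0.959 and 1.12. Neat1 gave 2.44, 1.40 and 0.350 from 2 to 17 counts a library, and Miat gave 4.28, 0.352 and 0.977 from 1 to 26 counts, so neither had a shared direction.

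In edgeR none of the 5 members that passed the filter, all but Neat1, was among the genes called between sorted and crude sucrose libraries, and no gene of the 10589 tested was called (0%). Of these genes 324 had an unadjusted p under 0.05, DESeq2 called 1 gene, and edgeR with the pairs as a block also called 1. The fitted log2 differences were 0.83 ± 0.84 for Rn45s, -0.57 ± 0.73 for Malat1, -0.45 ± 0.67 for Meg3, -0.14 ± 0.95 for Miat and 0.18 ± 0.64 for Snhg11 (SE), against a median of -0.04 over all genes tested. These fits took no account of the pairs. Each sign changed when some single library was left out, which also broke a pair. Within the pairs, Malat1 and Meg3 were lower after sorting each time, as given above. Without sorted replicate 3 the values of Rn45s and Snhg11 were -1.15 and -0.45. Without crude replicate 3 Malat1, Meg3 and Miat stood at 0.16, 0.43 and 0.60, and Rn45s at 1.78. Miat was also above 0 without sorted replicate 1 or 2 (0.13 and 0.28), and Snhg11 below it without crude replicate 2 (-0.18).

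All 6 RNAs had their highest share in replicate 3 both among the crude and among the sorted sucrose libraries. As background, 13.7% of the 10589 genes tested were highest in replicate 3 of both groups, 18.9% in replicate 1 and 21.6% in replicate 2. Replicate 3 was of middle depth in both groups, with 1911669 crude and 3214961 sorted counts.

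**Figure D2:**
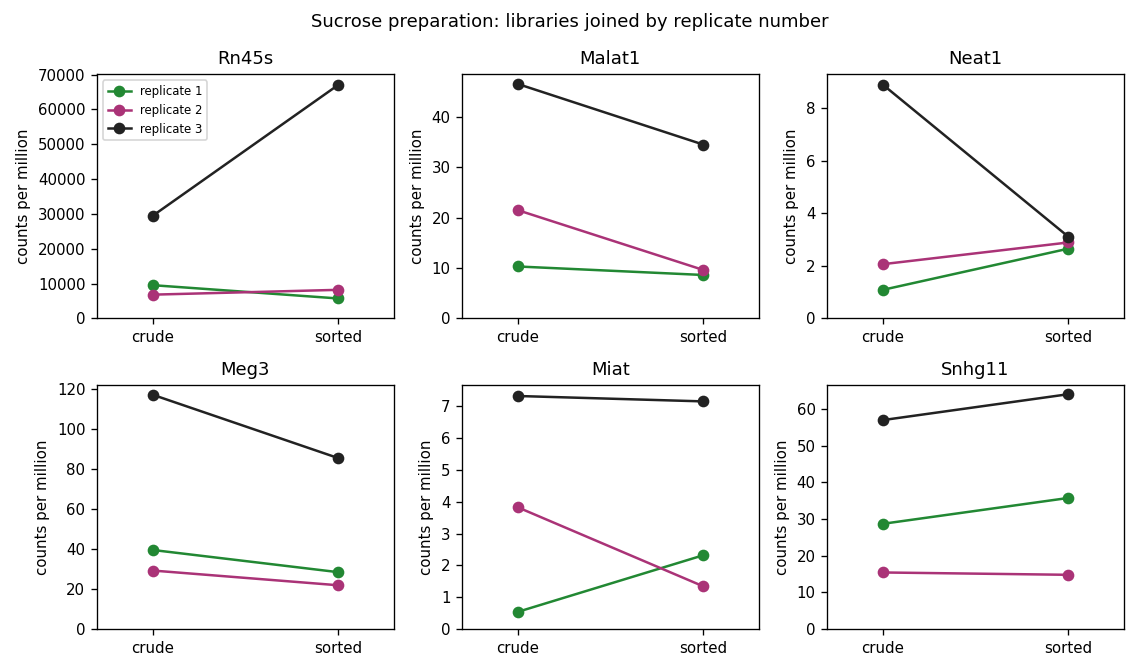
CPM (y axis, from 0) of each RNA in the crude and sorted sucrose libraries, joined by replicate number. Replicate 3 lies highest in both positions in all 6 panels, and the lines of Meg3 and Malat1 fall in all 3 pairs.

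The crude libraries of the preparations were compared directly. The members were not picked on this contrast, but earlier results of these data were known when they were picked. Rn45s was lower in SynSURF crude libraries (0.0894% to 0.778%, median 0.352%) than in sucrose crude ones (0.953%, 0.680% and 2.94%). The groups touched only through sucrose replicate 2, which lay below SynSURF replicates 6 and 9. The log2 difference, SynSURF minus sucrose, was -1.88 ± 0.47 (SE; edgeR quasi-likelihood, adjusted p = 0.0384). Without sucrose replicate 3 it was -0.94 and lost the call (edgeR adjusted p = 0.721). Leaving out SynSURF crude replicate 2, 3, 4, 5 or 10 moved the adjusted p to between 0.0518 and 0.0695 with differences of -1.79 to -1.88, and the fit with the shared numbers as a block gave -2.85 (edgeR adjusted p = 0.0533).

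This 1 call among 6 members stands against a background of 270 called genes of 11621 tested (2.32%), of which 228 were higher (1.96%) and 42 lower (0.361%) in SynSURF. No member had its groups apart. On CPM scaled with TMM factors, 2.42% of genes had, with SynSURF above, and 0.361% with SynSURF below. The other 5 members did not pass: edgeR gave -0.74 ± 0.47 for Meg3, -0.10 ± 0.44 for Malat1, -0.85 ± 0.99 for Miat, -0.62 ± 0.90 for Neat1 and -0.25 ± 0.43 for Snhg11 (SE; adjusted p from 0.659 to 0.959), against a median of 0.04 over all genes tested. All 6 were on the lower side, but without sucrose replicate 3 Malat1, Meg3, Neat1 and Snhg11 changed sign, at 0.61, 0.14, 0.69 and 0.40. The preparations were deposited as separate tables, so preparation and table cannot be told apart.

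On the length-scaled TPM scale the order of the 6 RNAs in SynSURF crude libraries ran from Rn45s (1312 ± 642) through Meg3 (17.3 ± 13.3), Snhg11 (9.13 ± 3.78), Malat1 (6.60 ± 2.01) and Neat1 (1.82 ± 2.07) to Miat (0.469 ± 0.516; SD, n = 10). The order was the same in sucrose crude libraries, at 5396 ± 4744, 23.8 ± 12.9, 11.7 ± 8.19, 7.64 ± 5.92, 2.75 ± 3.07 and 0.913 ± 0.832 TPM (SD, n = 3). In SynSURF crude libraries the gaps between Rn45s and Meg3 and between Malat1 and Neat1 exceeded the SDs of both. Neither the gap between Meg3 and Snhg11 nor that between Snhg11 and Malat1 was larger than the spread between libraries.

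Within the SynSURF crude group, Rn45s moved with mRNAs of ribosomal proteins. These mRNAs, 85 symbols in the table, took 0.891% of the counts outside Rn45s in crude replicate 1, where Rn45s was lowest, and 3.30% and 3.28% in replicates 6 and 9, where it was highest. Over the 10 crude libraries the log of the Rn45s share and this share gave Pearson's r = 0.915 (permutation p = 0.000320, adjusted over 9 relations 0.00288) and Spearman's rho = 0.818 (permutation p = 0.00563, adjusted 0.0507), so the rank test did not pass the correction. Without the 2 libraries farthest from the median, replicates 1 and 6, r was 0.773. In the 10 sorted libraries the same relation gave r = -0.01 (permutation p = 0.969, adjusted 0.969) and rho = 0.224 (permutation p = 0.538, adjusted 0.606), although ribosomal protein mRNAs were there at 1.13% to 5.22%. The difference between these relations was not tested.

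**Figure D3:**
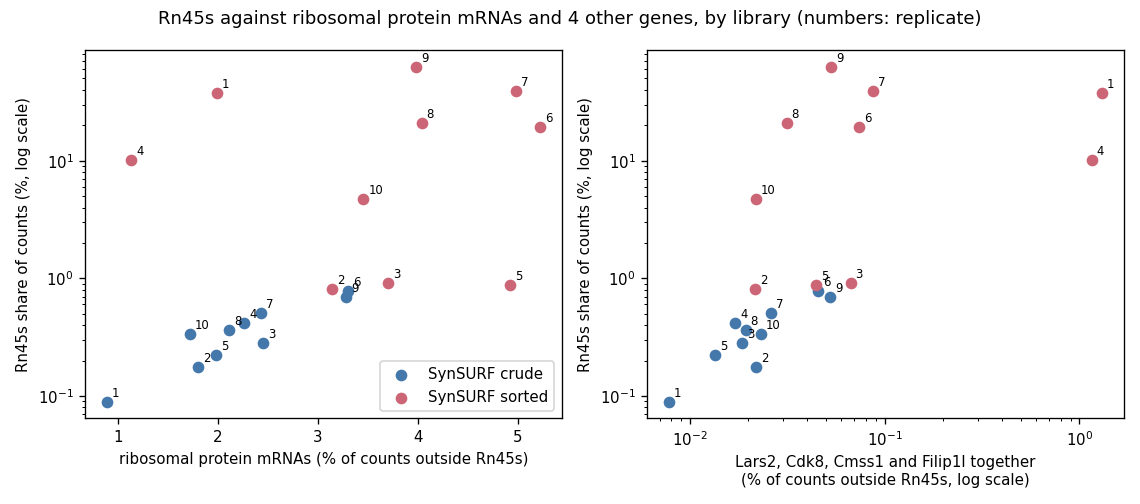
Rn45s share of counts (y axis, log scale) against ribosomal protein mRNAs (left, linear x axis) and against Lars2, Cdk8, Cmss1 and Filip1l summed (right, log x axis), both in percent of the counts outside Rn45s. Each point is a SynSURF library with its replicate number; the crude points climb together in both panels, and the sorted points do not in the left one.

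Lars2, Cdk8, Cmss1 and Filip1l are genes whose annotated bodies have been reported to collect ribosomal RNA reads. Their summed share outside Rn45s also moved with Rn45s in crude libraries (r = 0.881, permutation p = 0.00107, adjusted 0.00481; rho = 0.758, permutation p = 0.0151, adjusted 0.0679; r = 0.722 without replicates 1 and 9). Taken singly, as log2 CPM outside Rn45s in crude libraries, Rn45s gave r = 0.914 with Lars2, 0.461 with Cmss1 and 0.192 with Filip1l. With Cdk8 it gave r = -0.58, so the sum moved as Lars2 did and Cdk8 went the other way. In sorted libraries the sum gave r = 0.383 (permutation p = 0.272, adjusted 0.471) and rho = 0.515 (permutation p = 0.133, adjusted 0.300). Lars2, which encodes the mitochondrial leucyl-tRNA synthetase, had more counts than the other 3 genes together in every library but SynSURF crude replicate 1, the lowest in Rn45s, where Cdk8 held 222 counts and Lars2 119. Crude libraries held 10.98 to 32.9 Rn45s counts for each Lars2 count, while sorted ones held from 10.3 in replicate 4 to 3141 in replicate 9, so the pair did not keep a fixed ratio after sorting. In the sucrose libraries the ratio was 8.78 to 14.5 for replicates 1 and 2, and 99.1 and 164 for crude and sorted replicate 3. The longest Lars2 transcript shared no run of 16 identical bases with annotated ribosomal-RNA-like transcripts of Gm42418, AY036118 and Gm26917 on chromosome 17. Neither did the longest transcripts of the long noncoding RNAs. This search took in no introns and no sequence of Rn45s itself. Matches in the rest of the Lars2 gene body, or to other parts of the ribosomal RNA unit, were thus not tested.

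Neither depth nor the number of genes detected at a fixed 32095 counts outside Rn45s moved with the Rn45s share past the correction in either group. Depth gave r = 0.369 in crude (permutation p = 0.293, adjusted 0.471; rho = 0.455, adjusted 0.305) and -0.17 in sorted libraries (permutation p = 0.638, adjusted 0.820; rho = -0.44, adjusted 0.305). Detected genes gave r = 0.355 (permutation p = 0.314, adjusted 0.471; rho = 0.273, adjusted 0.573) and -0.08 (permutation p = 0.824, adjusted 0.927; rho = -0.04, adjusted 0.918). The Rn45s shares of crude and sorted libraries with the same number gave r = 0.373 (permutation p = 0.289, adjusted 0.471) and rho = 0.539 (permutation p = 0.112, adjusted 0.300). That last relation turned on few libraries: r was 0.881 without replicate 1 alone (permutation test, adjusted p = 0.0183) and 0.929 without replicates 1 and 6.

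The genes whose log2 CPM outside Rn45s followed each RNA most closely over the 10 crude libraries, among 6913 or 6914 genes with at least 10 counts in each, are given as a description, since all share library and depth. For Rn45s they were Mt2 (r = 0.980), a metallothionein, Gm12191 (0.977) and Rps12 (0.977), which encodes a protein of the small ribosomal subunit. For Malat1 they were Olfml2b (0.954), Nrgn (0.877), which encodes the postsynaptic calmodulin-binding protein neurogranin, and Cacna1g (0.871), a T-type calcium channel subunit. For Neat1 they were Neurl1a (0.941), Rabggtb (0.938) and Serpine2 (0.937). For Meg3 they were Xpnpep3 (0.880), Pitpnm3 (0.872) and Spred1 (0.862), for Miat Syt13 (0.942), Pgm1 (0.940) and Trp53i11 (0.911), and for Snhg11 Tmod3 (0.956), Stard4 (0.944) and Plpp6 (0.942). The members had no such minimum: the lowest crude library held 2 Neat1 counts and 0 Miat counts. The top 1% of genes began at r = 0.828 for Neat1 and 0.792 for Miat, and at 0.583 (Malat1) to 0.879 (Rn45s) for the others.

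Among the members themselves the closest pair in crude libraries was Meg3 and Snhg11 (r = 0.777), which ranked Snhg11 at place 29 of the 6913 genes compared with Meg3. Rn45s did not rise with any of the 5 long noncoding RNAs there, with r from -0.51 for Snhg11 and Meg3 to -0.03 for Miat. Over the 10 sorted libraries the genes most like Rn45s, among only 287 with at least 3 counts in each, were Ndufa4 (0.826), Ppp1cb (0.810) and Smad4 (0.805).

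The deposited tables give both a count and a TPM for each gene, and their ratio holds the mean length of the transcripts that the authors' counting assigned. This length was calibrated in each library on annotated genes with a single transcript, after those far from the common ratio were dropped. Its median error on the same kept genes was 0.572% to 2.75%, so its error on other genes was not measured. Rn45s came out at 5881 ± 13.1 bases in SynSURF crude (SD, n = 10) and 5942 ± 0.648 bases in sucrose crude libraries (SD, n = 3), close to each other in both tables. The annotation used held no Rn45s entry to set beside this length. Which part of the ribosomal RNA unit the Rn45s counts cover was therefore not tested. Malat1 came out at 7041 ± 17.9 bases in SynSURF crude libraries, next to its annotated 6983-base transcript.

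Neat1 is made as a short polyadenylated form and a long form without a tail, annotated at 3004 and 20771 bases. Its implied length was 3197 to 3263 bases in 9 of 10 SynSURF crude libraries and 3716 in replicate 8, and 3225 to 3243 bases in the 3 sucrose crude libraries. Its counts therefore sat at the length of the short form. Sorted replicate 6 gave 3196 bases, while sorted replicate 1 gave 20560 bases from 2 counts, with a rounding step of 778 bases.

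Meg3 was the member whose implied length moved. Its annotated transcripts run from 421 to 14548 bases. In SynSURF crude replicates 1 to 10 the implied lengths were 2951, 7946, 7310, 5150, 4478, 5713, 4276, 3214, 4756 and 3162 bases. In the 9 sorted libraries with a count, 7 lay above the highest crude value: replicate 1 at 8256 bases and replicates 2, 3, 4, 5, 9 and 10 at 11233 to 11800 bases. Replicates 6 and 7 lay at 1911 and 3721 bases. Low counts stood on both sides: replicates 2, 6 and 9 rest on 1 count each, replicate 7 on 2 and replicate 3 on 6. Among the 4 sorted libraries with at least 10 counts, all lay above the highest crude library. This is a contrast of the same kind as the one the members were chosen on, and no test was made. With the longer assigned length, Meg3 TPM fell below its CPM order: it averaged 17.3 ± 13.3 in crude and 6.36 ± 4.54 TPM in sorted libraries (SD, n = 10 each), and no sorted library lay above the crude mean.

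The sucrose pairs of Meg3 did not share a direction, at 4132 crude and 8434 sorted bases for replicate 1, 4154 and 5735 for replicate 2, and 6651 and 4412 for replicate 3. Miat came out at 8778 ± 64.0 bases in the 8 SynSURF crude libraries with a count (SD), near its annotated 8758-base transcript. Snhg11 came out at 6169 ± 14.2 bases in SynSURF crude (SD, n = 10) and 5973 ± 1.55 in sucrose crude libraries (SD, n = 3), against an annotated 5864.

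**Figure D4:**
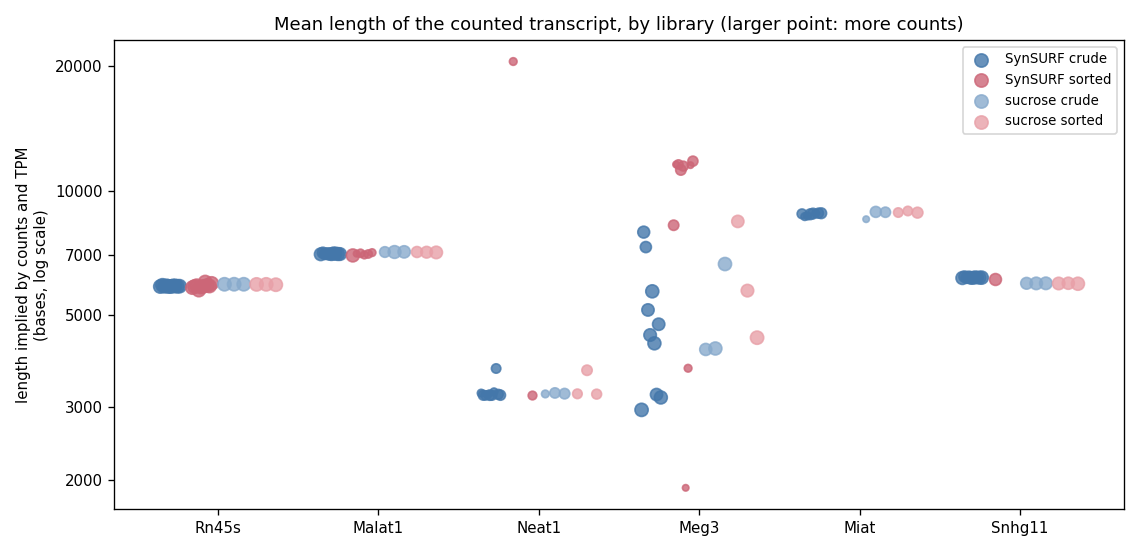
Mean length of the counted transcript implied by counts and TPM (y axis, bases, log scale) for each RNA, 1 point per library with a count, larger for more counts. Rn45s, Malat1, Miat and Snhg11 form narrow bands, Neat1 lies near the 3004 bases of its short form except for single libraries, and Meg3 spreads from 1911 to 11800 bases with most sorted SynSURF libraries on top.

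Genes linked to these RNAs were examined as lists in the SynSURF sorted-to-crude comparison, in which 7.62% of all tested genes rose and 22.1% fell. That fit took no account of replicate numbers, and with them as a block 37 genes rose and 2640 fell. Of the 2 tested genes reported to collect ribosomal RNA reads, Lars2 alone rose, by 5.26 ± 1.02 on the log2 scale (edgeR adjusted p = 0.000260). Its counts stood at 14676 and 3220 in sorted replicates 1 and 4 and at 17 to 74 in the others, and without those 2 libraries the difference was 1.62 (edgeR adjusted p = 0.0191). None of 5 tested nuclear long noncoding RNAs outside the members passed (median -0.35); Tug1 stood at -0.35 ± 0.67, Rian, a neighbour of Meg3 in its imprinted cluster, at -0.82 ± 0.62, Peg13 at 0.71 ± 0.70 and Sox2ot at -1.02 ± 0.61 (SE). With library totals 2 of the 5 were called lower, and 1 or 2 of 7 were when any one of sorted replicates 2 to 10 was left out. Of 20 host genes of small nucleolar RNAs, Snhg5 alone was tested and rose by 1.75 ± 0.63 (edgeR adjusted p = 0.0380), a call lost with library totals (0.90, edgeR adjusted p = 0.302). It was also lost without crude replicate 1, 2, 3, 4, 5, 6, 9 or 10, or sorted replicate 3, 5, 8, 9 or 10 (edgeR adjusted p from 0.0524 to 0.0852). Of 12 genes of small structural RNAs 9 were in the table, and all 9 had no count in any sorted library; 6 of them had none in any crude library either, and the list's crude share outside Rn45s was at most 0.000932%.

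Of 18 tested genes of RNA polymerase I transcription and ribosomal RNA processing, none rose and 2 fell (median 0.06). The 4 with the most counts did not pass: Ubtf, which activates the 45S promoter, stood at 0.61 ± 0.63, the subunit gene Polr1d at 0.70 ± 0.73, Nop10 at 0.07 ± 0.63 and Utp6 at -1.67 ± 0.83 (SE). Those that fell were Utp4, a subunit of the small-subunit processome (-2.16 ± 0.72, edgeR adjusted p = 0.0242), and Pes1, which acts in the maturation of the large subunit (-2.64 ± 0.72, edgeR adjusted p = 0.00650); 7 of 10 sorted libraries held no Utp4 count and 8 no Pes1 count. The count of 2 was 5 with library totals, 6 with DESeq2 (beside 1 higher), 7 with the replicate block, 4 without sorted replicate 1, 2 or 5, and 3 without sorted replicate 3 or 8. Without sorted replicates 1 and 4 together it was 4, beside 1 higher. Of 22 tested genes of paraspeckle and nuclear speckle proteins, 8 rose and 1 fell (median 2.00). Among the 4 with the most counts, Matr3 (2.66 ± 0.96, edgeR adjusted p = 0.0372), Hnrnpk (3.73 ± 0.94, edgeR adjusted p = 0.00358) and the splicing factor Srsf1 (5.32 ± 1.39, edgeR adjusted p = 0.00471) rose and Srsf3 did not pass (1.16 ± 0.63). The 1 that fell was Ptbp1 (-3.99 ± 0.88, edgeR adjusted p = 0.00111). Without sorted replicate 4, where Matr3 held 3451 and Srsf1 1770 counts, no gene of this list was called higher. The 1 lower call was 0 without crude replicate 3, 4, 5, 6, 7, 9 or 10, 2 with the replicate block and, without sorted replicates 1 and 4 together, 6, beside 1 higher call. The count of 8 was 3 with library totals, 1 with DESeq2, 0 with the replicate block, and 3 to 6 when any one crude library was left out.

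In the sucrose comparison none of these lists had a called gene in edgeR, as no gene had. Between the crude groups 1 of 14 tested nuclear long noncoding RNAs passed, where 2.32% of all genes tested did. It was C130071C03Rik, with 18 to 111 counts in every SynSURF crude library and none in any sucrose library (edgeR adjusted p = 3.39e-05). Preparation and table cannot be told apart for this gene either.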

How the data were processed

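Poly(A) RNA of 26 mouse synaptosome libraries was analysed: 10 crude and 10 sorted SynSURF libraries, and 3 crude and 3 sorted sucrose libraries. Another 2 libraries, of total RNA, are not analysed here. The authors deposited, for each preparation in a table of its own, estimated counts per gene symbol, and beside them TPM, which the authors scaled for gene length and library. Tools and builds in the submitters' processing notes are HISAT2, fastp, GRCm39 and GRCm38, with no role; which program counted, with which annotation and strand setting, is not given in the sources used here. Where strand is not used, reads of overlapping and antisense genes cannot be told apart, and multi-copy ribosomal DNA and ribosomal protein pseudogenes may split reads.

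Values that were not whole (7278 and 4660) were rounded. Shares are counts over the library total. Groups were compared with edgeR 4.0.16 quasi-likelihood tests (R 4.3.3; TMM factors, default expression filter, Benjamini-Hochberg adjustment over all genes tested, threshold 0.05), tested first on simulated counts. Crude libraries of both preparations were fitted over the 23466 shared symbols. The fits used group alone unless the replicate block is named. DESeq2 1.42.0, other scalings, no filter, removal of Rn45s, a replicate block and leaving out each library were alternatives. Relations across libraries used 2-sided permutation tests (100000 resamples, scipy), adjusted over 9 relations. Correlations of deviations between same-numbered sucrose libraries were 0.336, 0.473 and 0.323, so numbers were taken to pair them. Intervals are 95% Wilson intervals; pooled floors are 3 counts over the group and single-library floors 3 counts per library. Implied lengths came from the count-to-TPM ratio, calibrated on 30 to 604 single-transcript GENCODE genes per library and added after the data were seen. The annotation used had no entry for Rn45s, and 18 columns of per-sample values in another sheet were not used.

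The 6 members and all gene lists were chosen with earlier results of these data known. Named genes were the members, up to 4 genes of each list with the highest mean CPM among those tested, plus called genes where at most 5 were called (Ptbp1 is named beside these; marker lists are given as sums), and for each member the 3 genes with the highest correlation. Ptbp1, the Meg3 and Neat1 lengths and the sucrose replicate 3 ranking were singled out after their values were seen.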

Additional observations from a re-analysis of the deposited data

Results flagged for a closer look

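Among 26 sets of 4 to 10 libraries examined, 6 had a single library far from the others by a gap test. That test is set to trigger in about 1 in 20 sets of normally distributed values. Sets made mostly of counts of 0, as for sorted Neat1 and Snhg11, are not of that kind, so the 6 are not read against this rate. Miat was highest in SynSURF crude replicate 5, at 0.000743% of counts. Malat1 was highest in sorted replicate 1 (0.0101%), Neat1 in sorted replicate 6 (0.00412%, from 4 counts) and Snhg11 in sorted replicate 5 (0.0449%, with 0 in the other 9). The implied length of Malat1 was highest in crude replicate 2 at 7081 bases, a small step within a narrow band. That of Neat1 was highest in crude replicate 8 at 3716 bases, from 7 counts.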

How the results depend on the processing

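The number of genes called between sorted and crude SynSURF libraries, 1961, was 4417 with no filter on low counts and 3070 with DESeq2; between sucrose groups it was 0, and 1 with no filter, with DESeq2, with the replicate block and without crude replicate 2 (range over left-out libraries 0 to 1). Between the crude groups the 270 calls became 171 with the replicate block. Numbers also paired most SynSURF libraries: same-numbered crude and sorted libraries correlated at 0.0536 to 0.188, and 8 of 10 correlated best with their own number. The main SynSURF fits took no account of this. With the replicate block there were 2677 calls, 1.38% of them higher, and the median log2 difference was -1.97 in place of -0.18. Between the crude groups same-numbered correlations were -0.23, -0.39 and 0.00. Under the block the Rn45s difference between the crude groups was -2.85 (edgeR adjusted p = 0.0533), while uncalled Malat1, Neat1 and Snhg11 changed sign to 0.25, 0.0836 and 0.13. Leaving out 1 library, the uncalled crude differences ranged from -0.49 to 0.61 for Malat1, -1.09 to 0.14 for Meg3, -1.06 to 0.69 for Neat1 and -0.61 to 0.40 for Snhg11. For sorted SynSURF libraries, uncalled relations of the Rn45s share changed sign. With depth r ranged from -0.65 to 0.0492 over left-out libraries, with detected genes from -0.21 to 0.19 (0.17 on a linear share) and with ribosomal protein mRNAs from -0.15 to 0.17 (0.0859 on a linear share, 0.00224 as a ratio to other counts). The relation of same-numbered crude and sorted shares ranged from 0.243 to 0.881. The causes were not tested. The called relations of crude libraries passed in Pearson's test under every alternative. Depth limits the sorted SynSURF libraries most: below about 9.23 to 39.2 CPM a count of 0 says nothing in 9 of 10.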
